A study of Mus musculus with 12 samples.

Results

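The genes described here build, anchor, cut and cross-link the extracellular matrix. They are the protein-coding genes named as collagen chains (Col, a number, a and a number), laminin chains (Lama, Lamb, Lamc), integrin chains (Itga, Itgb), Adamts proteases, and lysyl oxidases (Lox, Loxl1 to Loxl4). The rule uses the symbol alone and no expression value, but the set was chosen with earlier results of these data known. The rule took in 108 genes of the 55536 lines of the deposited table, of which 22028 are protein-coding. In family terms these were 44 collagen chains, 11 laminin chains, 26 integrin chains, 19 Adamts genes and 5 lysyl oxidases. A further 3 genes, Itgb3bp, Itgb1bp1 and Itgb1bp2, encode proteins named for binding an integrin tail and are no integrin chains. They came in through the start of their symbol.

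Collagen chains assemble as trimers. Fibrillar collagens form the cables of connective tissue, type IV collagen forms the sheet of basement membranes, and laminins, trimers of an alpha, a beta and a gamma chain, form the second sheet of that membrane. Integrins are pairs of an alpha and a beta chain in the plasma membrane that bind these proteins outside the cell and the actin cytoskeleton within it. Adamts genes encode secreted metalloproteases that cut matrix proteins such as proteoglycans and procollagens, and lysyl oxidases cross-link collagen and elastin. Melanoma cells use integrins to attach and to invade, and they make part of their own matrix.

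RNA was sequenced from cultures of B16.F10, a mouse melanoma line of C57BL/6 background, in 12 libraries, 3 in each of 4 groups. All groups received a small interfering RNA for 72 h. In the control it was directed at luciferase (siLuc, labelled wild type for PRMT7), and in the knockdown at Prmt7 (siPRMT7, labelled PRMT7 KD), which encodes an arginine methyltransferase. A group of each kind stayed untreated, and a group of each kind had interferon gamma (IFN-γ), a T cell cytokine, for the last 24 h. No dose is given, because the labels disagree on its unit. The labels name replicates and do not say that they are separate cultures, so p-values measure the spread between these libraries, which may be technical. The knockdown is by a small interfering RNA, so cells keep part of the transcript, and the cells are 1 line in culture, with no stroma stated.

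Library totals ran from 19.0 to 31.0 M reads. Values are the authors' rlog (regularized log2) values, in which genes with few reads are drawn toward their mean, so that changes and spread of weak genes are understated. A gene was tested where its mean rlog value over the 12 libraries was at least 4, and it was called where the adjusted p was under 0.05 (limma, Benjamini-Hochberg over all 14407 genes tested). Prmt7 was at 10.16, 10.34 and 10.24 in the siLuc libraries and at 6.16, 6.32 and 6.41 in the siPRMT7 libraries, and at 10.26, 10.24 and 10.26 against 6.36, 6.30 and 6.08 with IFN-γ. It was lower by knockdown in all pairs of groups, with a log2 difference of -3.95 (SE 0.08) without and -4.005 with IFN-γ. Of 7 melanocyte markers all passed the filter, and all were above 13 at their highest. Of 8 fibroblast markers 2 passed, Pdgfra and Pdgfrb, and the summed linear level of the list was 411 to 422 in siLuc and 289 to 300 in siPRMT7 libraries, and 341 to 369 against 299.7 to 320.9 with IFN-γ. Of 8 leukocyte markers 2 passed, Cd68 and Csf1r, with Cd3e, Adgre1 and Tyrobp listed at 0 in every library, and the sum was 409 to 422 in siLuc and 449 to 527 in siPRMT7, and 349 to 407 against 564 to 590 with IFN-γ. Of 6 endothelial markers only Vwf passed, with sums of 33.6 to 41.2 and 101 to 119, and of 36.8 to 43.3 and 56.1 to 59.0 with IFN-γ. No keratinocyte marker of 6 passed. The melanocyte sums were 482258 to 503124 in siLuc, 402779 to 426773 in siLuc with IFN-γ, 382059 to 389607 in siPRMT7 and 281354 to 301986 in siPRMT7 with IFN-γ. Mitochondrial transcripts made up 1.56 to 2.23% of summed linear values in siLuc, 1.06 to 1.20% in siLuc with IFN-γ, 2.54 to 2.83% in siPRMT7 and 1.54 to 1.61% in siPRMT7 with IFN-γ. The part of these shifts in the results below was not tested.

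Of the 108 genes 66 passed the filter and 42 did not. The 66 were 26 collagen chains (7 of 11 fibrillar, 5 of 6 of type IV and 14 of 27 others), 8 of 11 laminin chains, 11 of 17 integrin alpha chains, 5 of 9 beta chains, 2 of the 3 integrin-binding protein genes, 11 of 19 Adamts genes and 3 of 5 lysyl oxidases. The filter uses the mean over all groups, so a gene high in a single group could pass through that group. This held for 2 of the 66: Lamc3 averages 3.53 without the siPRMT7 group and Col4a3 3.99 without the siPRMT7 group with IFN-γ, and their differences are given as a description. This check left out 1 group at a time, and a gene high in more groups can pass likewise. Col6a3 and Col28a1 average under 4 in the untreated groups and passed through their IFN-γ groups, so their differences are also a description. All these genes stay in the counts and medians below. Among genes below the filter the highest values in any library were 4.16 for Lama3 and 3.98 for Col12a1. Lox itself reached -1.71 at most, and Col3a1, the partner of type I collagen in many tissues, 2.60. Leukocyte integrin chains were weak or at 0, with Itgal at most at 2.55, Itgb2 at 2.49 and Itgam at -1.43, and Itgax listed at 0 throughout.

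Levels of different genes can be set side by side only per length of the gene model, as the group mean rlog value less log2 of its length in kilobases. On that scale Itgb1, the beta chain shared by most matrix-binding integrins, stood highest in siLuc cells at 12.22 ± 0.11 (SD, n = 3). Adamts1, a protease for proteoglycans, followed at 10.69 ± 0.04. Then came Itga6, a laminin-binding chain, at 9.54 ± 0.20, the laminin chain Lamc1 at 9.52 ± 0.12, the lysyl oxidase Loxl3 at 9.43 ± 0.04 and the beta chain Itgb5 at 9.37 ± 0.03. Itga6 and Lamc1 differed by less than their spread. Among collagens Col16a1, a fibril-associated chain, was highest at 8.41 ± 0.06, above Col4a2 at 7.92 ± 0.09. Transcripts of the type I collagen chains stood far apart in these cells: Col1a2 was at 6.87 ± 0.19 and Col1a1, which supplies the larger number of chains in a type I trimer, at 2.62 ± 0.19. Col1a1 averages 4.84 in rlog value, near the filter, and protein was not measured.

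**Figure D1:**
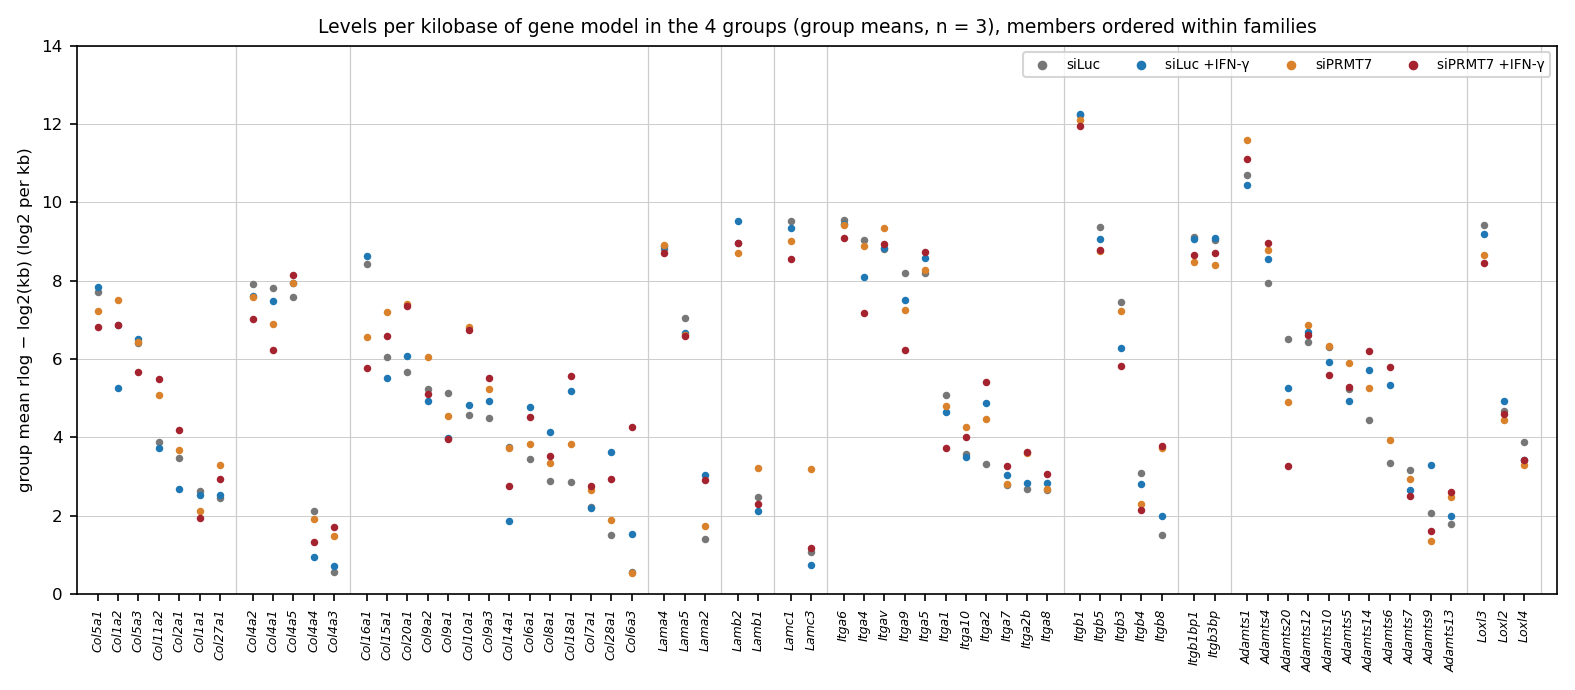
Group mean level per kilobase (log2, vertical axis) of 65 of the 66 genes tested, ordered by family along the horizontal axis and coloured by group (n = 3 libraries each). Itgb1 is highest near 12 in all groups, and Col6a3 is raised far above the other groups in siPRMT7 cells with IFN-γ.

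Prmt7 knockdown moved collagen genes in both directions, and the knockdown comparison with IFN-γ present used other libraries than the one without. Without IFN-γ 32 of the 66 genes rose, 22 fell and 12 were not called, so 81.8% were called beside 75.2% of all genes tested. The share of risers was 48.5% beside 36.3% of all genes (38.9% fell), and 7 rose by at least 2-fold, against 4.65% of all genes, while 2 fell that far, against 3.53%. Lamc3, which passed the filter through its siPRMT7 group, is among the 7. The median log2 difference of the 66 was 0.10, beside -0.01 over all genes. With IFN-γ 29 rose and 25 fell (81.8% called, against 74.7% of all genes, 35.9% higher and 38.7% lower), 9 and 6 of them by at least 2-fold (3.90% and 4.94% of all genes), and the median was 0.04 beside -0.01. Col6a3, which passed the filter through its IFN-γ groups, is among the 9. Genes high in both siPRMT7 groups can pass through these likewise, so the count of 9 is a description. Among the 43 genes with a mean rlog of 6 or more the comparison with IFN-γ turned, with 17 higher, 20 lower and a median of -0.19. The libraries of the groups did not overlap for 54 genes in each of the comparisons, against 76.3% and 77.2% of all genes. In both comparisons 24 genes were higher, 19 were lower, and Lama4, Col8a1 and Col28a1 were higher without IFN-γ and lower with it. Such joint calls were not counted over all genes, so these numbers are a description. The higher calls of Col8a1 and Col28a1 without IFN-γ were lost under quantile normalization (adjusted p = 0.0531 and 0.149). That of Lama4 was lost under 4 alternatives, so a turn in direction is not firm for these genes. RNA of a whole culture was measured, so fewer cells making a transcript and less of it per cell cannot be told apart.

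**Figure D2:**
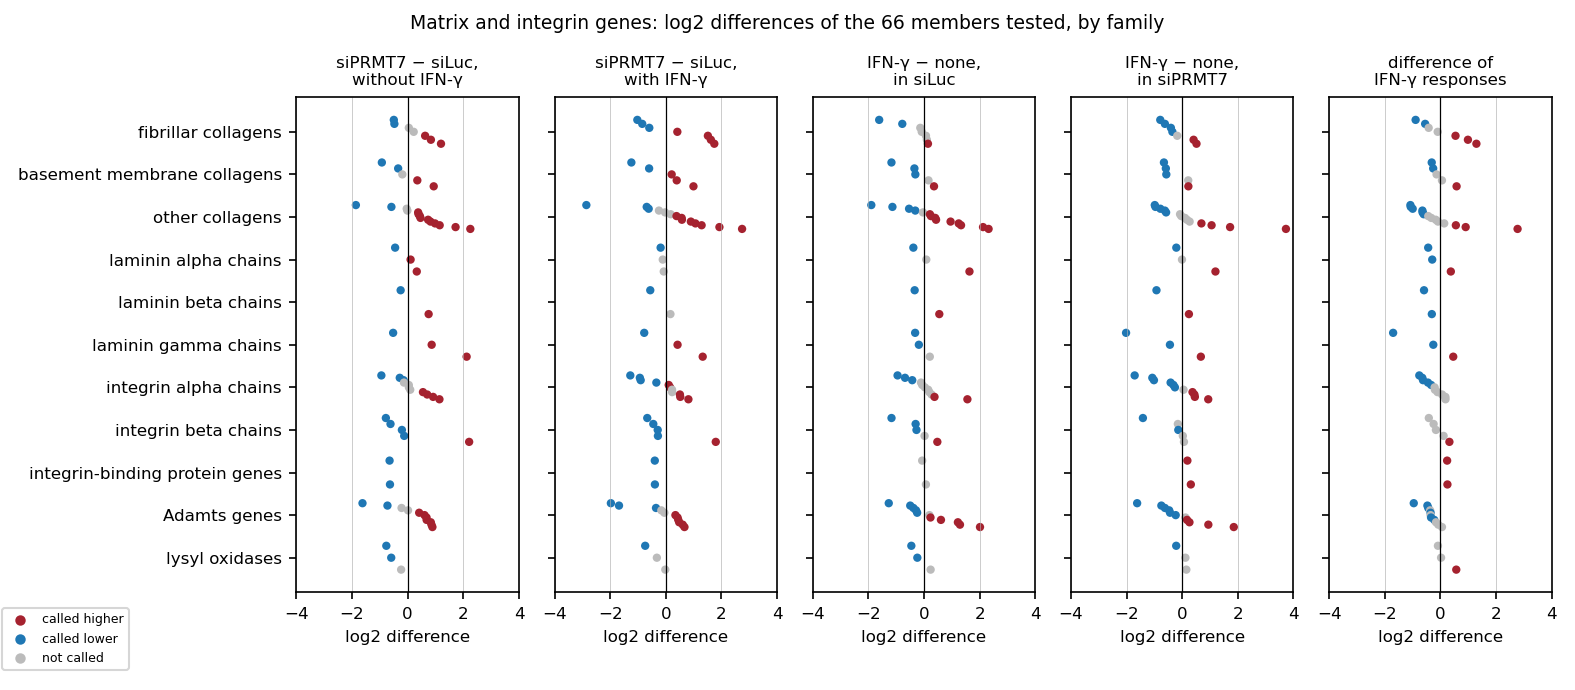
Log2 difference (horizontal axis) of each of the 66 genes tested, by family (rows) and comparison (panels). Red points were called higher, blue lower and grey not called. The collagens outside the fibrillar and type IV families hold 10 red and 2 blue points in the leftmost panel (6 and 3 called after quantile normalization).

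Collagen chains made up 15 of the 32 risers without IFN-γ, a count that depended on scaling. Of the 26 tested 15 rose and 6 fell without IFN-γ (57.7% and 23.1%, against 36.3% and 38.9% of all genes). After quantile normalization 11 rose and 8 fell, against 5187 and 5524 of all 14407 genes. With IFN-γ 15 rose and 8 fell (57.7% and 30.8%, against 35.9% and 38.7% of all genes). The risers include Col4a3 in both settings and Col6a3 with IFN-γ, which passed the filter through groups where they are high. The largest collagen rise without IFN-γ was in Col10a1, the short-chain collagen known from hypertrophic cartilage. Its rlog values were 6.36, 6.14 and 6.15 in siLuc and 8.40, 8.38 and 8.64 in siPRMT7 libraries, and with IFN-γ 6.40, 6.37 and 6.63 against 8.51, 8.27 and 8.40. All knockdown libraries lay above all control libraries, by 2.25 (SE 0.10, 4.76-fold, adjusted p = 1.46e-14) without IFN-γ and 1.93 with it. Col20a1, a fibril-associated chain, went from 8.18, 7.76 and 7.50 to 9.59, 9.56 and 9.46 (1.72, 3.30-fold), and with IFN-γ from 8.33, 8.08 and 8.24 to 9.52, 9.69 and 9.30 (1.29). Col11a2, a chain of the cartilage collagen XI, went from 6.65, 6.34 and 6.31 to 7.78, 7.57 and 7.55 (1.20), and with IFN-γ from 6.43, 6.15 and 6.32 to 8.06, 8.23 and 7.84 (1.74). In each of these the groups were apart. Col15a1, a basement membrane-associated proteoglycan chain, stood at 8.66, 8.32 and 8.23 in siLuc against 9.59, 9.56 and 9.50 in siPRMT7, a rise of 1.15, and at 7.94, 7.78 and 7.87 against 8.89, 8.93 and 8.97 with IFN-γ, a rise of 1.06.

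The largest fall was in Col16a1, the most abundant collagen of siLuc cells per length. Its values were 10.79, 10.75 and 10.67 in siLuc, 9.03, 8.87 and 8.73 in siPRMT7, 10.999, 10.91 and 10.93 in siLuc with IFN-γ and 8.14, 8.25 and 7.88 in siPRMT7 with IFN-γ. The lowest control library thus stood more than 1 log2 unit above the highest knockdown library in both settings. The difference was -1.86 (SE 0.08, 3.63-fold lower) without IFN-γ and -2.86 (7.25-fold lower, adjusted p = 4.28e-18) with it. Col5a1, which helps to start collagen fibrils, was at 10.72, 10.82 and 10.70 against 10.32, 10.24 and 10.25 without IFN-γ, and at 10.91, 10.84 and 10.92 against 9.88, 9.95 and 9.77 with it, falling by 0.48 and by 1.02.

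The 2 chains of type I collagen went apart. Col1a1 was at 5.37, 5.11 and 4.99 in siLuc and at 4.66, 4.68 and 4.64 in siPRMT7, and at 5.04, 5.03 and 5.16 against 4.48, 4.57 and 4.40 with IFN-γ, lower by knockdown in both (-0.50 and -0.59). Col1a2 was at 9.47, 9.22 and 9.08 in siLuc and at 9.79, 9.88 and 9.99 in siPRMT7, and at 7.52, 7.64 and 7.77 against 9.15, 9.23 and 9.41 with IFN-γ, higher by knockdown in both (0.63 and 1.62). No library of a knockdown group overlapped its control for either gene. Of the fibroblast markers tested, Pdgfrb was lower with knockdown in both settings (-0.52 and -0.27), and Pdgfra was lower without IFN-γ (-0.42) and higher with it (0.30); their part in the type I collagen values was not tested.

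Among type IV collagens Col4a1 and Col4a2, the chains of the common basement membrane network, fell, and Col4a5, of the networks known from kidney, lung and eye, rose. Col4a1 was at 10.49, 10.59 and 10.48 in siLuc and 9.62, 9.59 and 9.56 in siPRMT7, and at 10.09, 10.17 and 10.25 against 8.97, 8.95 and 8.89 with IFN-γ, with differences of -0.93 and -1.24. Col4a2 was at 10.60, 10.68 and 10.49 in siLuc and 10.31, 10.24 and 10.20 in siPRMT7, and at 10.31, 10.22 and 10.31 against 9.69, 9.78 and 9.56 with IFN-γ, with differences of -0.34 and -0.60. The knockdown libraries of both genes lay below all control libraries of the same treatment. Col4a5 was higher by 0.35 and 0.21 with knockdown. Col4a3 was at 3.61, 3.78 and 3.49 against 4.41, 4.67 and 4.61 without and at 3.70, 3.62 and 4.05 against 4.81, 4.81 and 4.72 with IFN-γ, differences of 0.94 and 0.99 that come without a test, since Col4a3, a partner of Col4a5, passed the filter through its high knockdown values. Col4a3 also shares 5.65% of its exon bases with C430014B12Rik on the other strand, whose mean rlog value is 5.34, so the value of Col4a3 is uncertain.

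**Figure D3:**
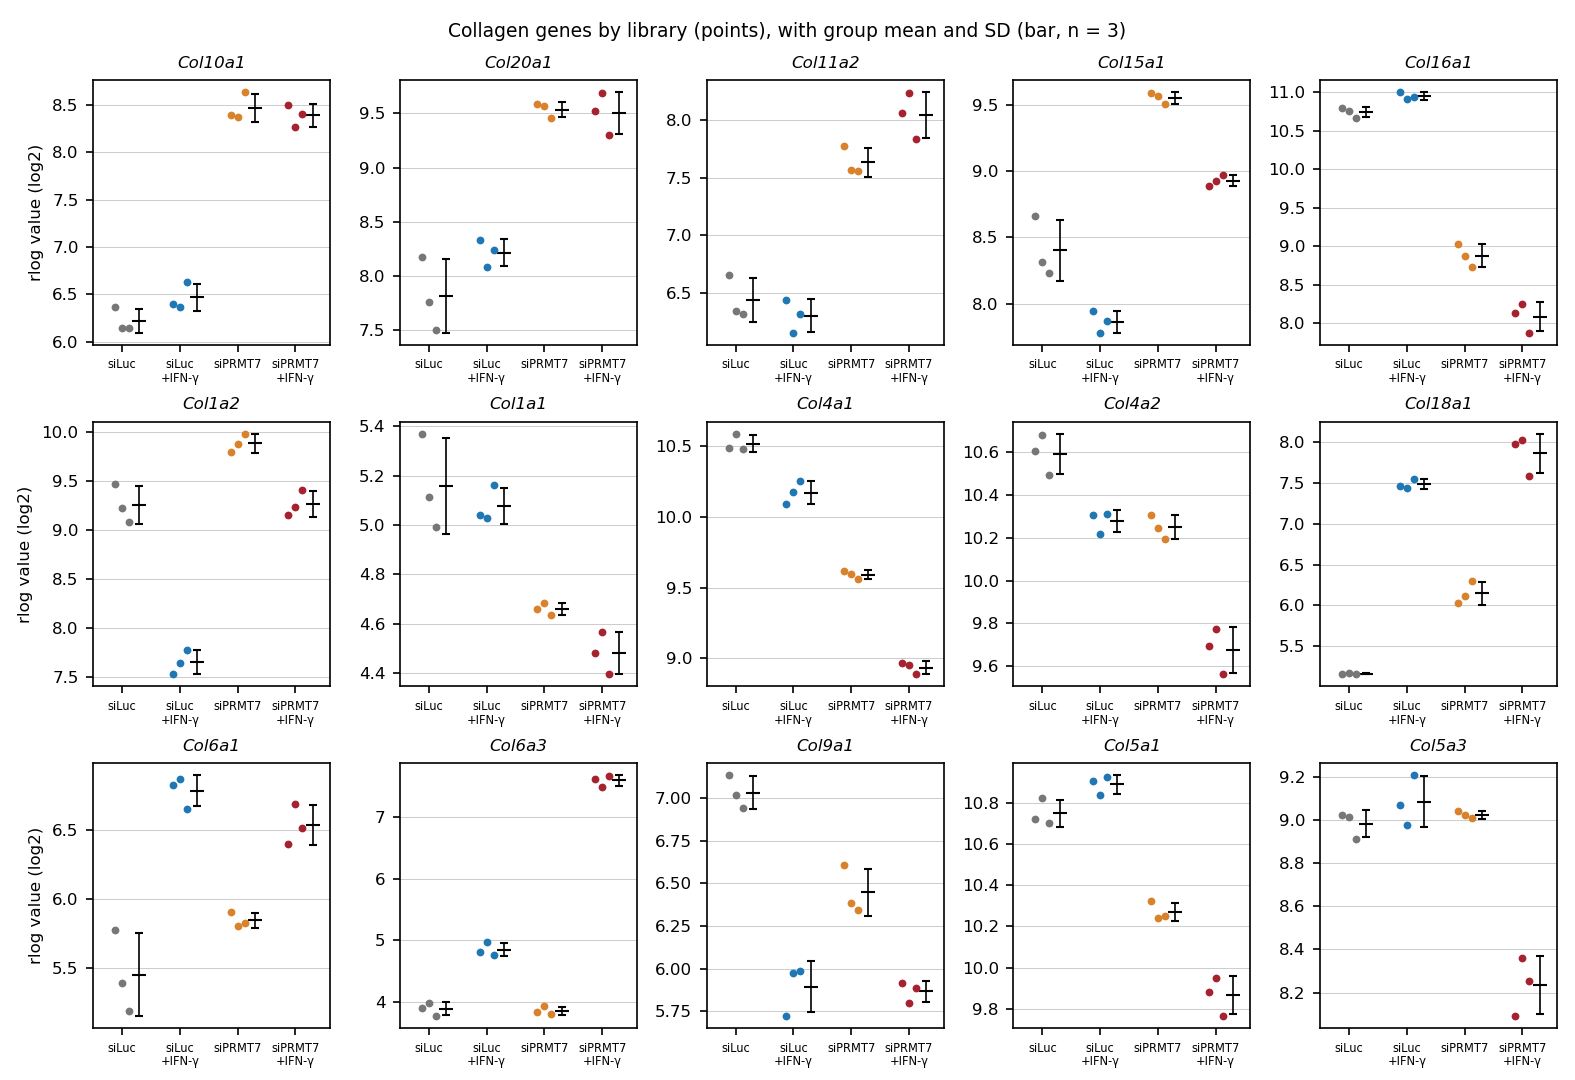
Rlog values (log2, vertical axis) of 15 collagen genes in every library (points) with the group mean and SD (bars, n = 3). Col10a1 and Col20a1 are high in both siPRMT7 groups, Col16a1 and Col4a1 low in both, and Col6a3 high in siPRMT7 cells with IFN-γ.

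Laminin chains moved in no single direction with knockdown, although Lama5, Lamb2 and Lamc1 all fell without IFN-γ. Of 8 tested 5 rose and 3 fell without IFN-γ (62.5% and 37.5%, against 36.3% and 38.9% of all genes). With IFN-γ 2 rose and 3 fell (25.0% and 37.5%, against 35.9% and 38.7% of all genes). The risers without IFN-γ include Lamc3, which passed the filter through its siPRMT7 group. A laminin gene high in both siPRMT7 groups can pass through these likewise, so the riser counts in both settings are a description. Lamc1, the gamma chain of most laminins, was at 12.32, 12.55 and 12.46 in siLuc and 11.95, 11.97 and 11.84 in siPRMT7, and at 12.24, 12.27 and 12.26 against 11.50, 11.48 and 11.45 with IFN-γ, falling by 0.52 and by 0.78. Lamb1, its usual beta partner, was at 5.10, 5.02 and 4.81 against 5.74, 5.79 and 5.66, rising by 0.75. With IFN-γ Lamb1 was at 4.73, 4.46 and 4.73 against 4.68, 4.96 and 4.77, groups that overlapped and were not called (0.16, adjusted p = 0.192). Lamb2, the other beta chain, stood far above Lamb1 per length and fell by 0.25 and 0.56. Lama5, of many mature basement membranes, was at 10.57, 10.60 and 10.46 in siLuc and 10.11, 10.11 and 10.06 in siPRMT7 libraries, lower by knockdown (-0.45). With IFN-γ Lama5 was at 10.25, 10.01 and 10.22 against 10.09, 10.17 and 9.99, which overlapped (-0.08, not called). Lama4 was called higher without IFN-γ by 0.11 (adjusted p = 0.0213), a call lost without siLuc replicate 1 or siPRMT7 replicate 1 or 2 (adjusted p up to 0.135).

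Integrin chains moved in both directions with knockdown. Of 16 alpha and beta chains 5 rose and 7 fell without IFN-γ, or 7 and 4 after quantile normalization, and 6 rose and 8 fell with it. Over all genes 36.3% rose and 38.9% fell without IFN-γ, beside 31.25% and 43.75% of these chains. With IFN-γ 35.9% and 38.7% of all genes did, beside 37.5% and 50.0% of the chains. The largest rise was in Itgb8, which pairs with Itgav and is known for activating latent TGF-β. Itgb8 was at 4.45, 4.74 and 4.52 in siLuc and 6.74, 6.74 and 6.86 in siPRMT7, and at 4.94, 4.97 and 5.23 against 6.77, 6.70 and 7.05 with IFN-γ. The groups were apart, by 2.21 (SE 0.11, 4.63-fold, adjusted p = 2.45e-13) and 1.79. Itgav itself, the alpha chain of RGD-binding integrins, was at 11.52, 11.61 and 11.69 in siLuc and 12.19, 12.14 and 12.14 in siPRMT7, higher by 0.55. With IFN-γ Itgav was at 11.65, 11.68 and 11.58 against 11.77, 11.66 and 11.79; these groups overlapped, and a call at 0.10 (adjusted p = 0.0466) was lost under 7 alternatives, among them leaving out siLuc replicate 1 or 3 or siPRMT7 replicate 1 or 3 of the treated groups (adjusted p up to 0.201). Itgb5, another partner of Itgav, fell by 0.62 and 0.29, and Itgb3, the partner linked to invasive melanoma, was at 9.97, 9.97 and 9.95 against 9.76, 9.78 and 9.74 and, with IFN-γ, at 8.74, 8.82 and 8.83 against 8.34, 8.56 and 8.14. Itgb3 was lower by 0.21 and 0.45, and the first of these calls was lost under quantile normalization (adjusted p = 0.0697). Thus the Itgav partners differed in direction.

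Itga9, a receptor chain for tenascin and other ligands, showed the largest fall among alpha chains. Itga9 was at 10.92, 10.98 and 11.08 in siLuc and 10.05, 10.06 and 10.04 in siPRMT7, and at 10.24, 10.40 and 10.30 against 8.98, 9.03 and 9.09 with IFN-γ, with differences of -0.95 and -1.28. Itga4, which binds VCAM-1 and fibronectin, was at 12.20, 12.36 and 12.39 against 12.21, 12.16 and 12.14, groups that overlapped. Its call without IFN-γ (-0.15, adjusted p = 0.00592) turned to 0.014 (adjusted p = 0.758) under quantile normalization. With IFN-γ Itga4 was clearly apart, at 11.34, 11.36 and 11.40 against 10.44, 10.41 and 10.53, lower by 0.90. Itga4 shares 8.04% of its exon bases with Cerkl on the other strand (mean rlog value 8.45). The abundant Itgb1 was at 14.05, 14.12 and 14.26 against 13.997, 13.999 and 14.06 and, with IFN-γ, at 14.16, 14.20 and 14.12 against 13.90, 13.85 and 13.88. Its difference without IFN-γ was -0.12 (adjusted p = 0.018) with overlapping groups, was not called without siLuc replicate 3 or siPRMT7 replicate 1 or 2 (adjusted p up to 0.143), and was 0.10 with the opposite sign under quantile normalization. With IFN-γ the Itgb1 groups were apart, by -0.28. Of the collagen-receptor alpha chains Itga2 rose with knockdown by 1.14 and 0.52, Itga10 rose by 0.70 and 0.51, Itga1 fell by 0.28 and by 0.93, and Itga11 was below the filter. Itga10 shares 33.5% of its exon bases with Gm42957 on the same strand, so its value is uncertain.

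**Figure D4:**
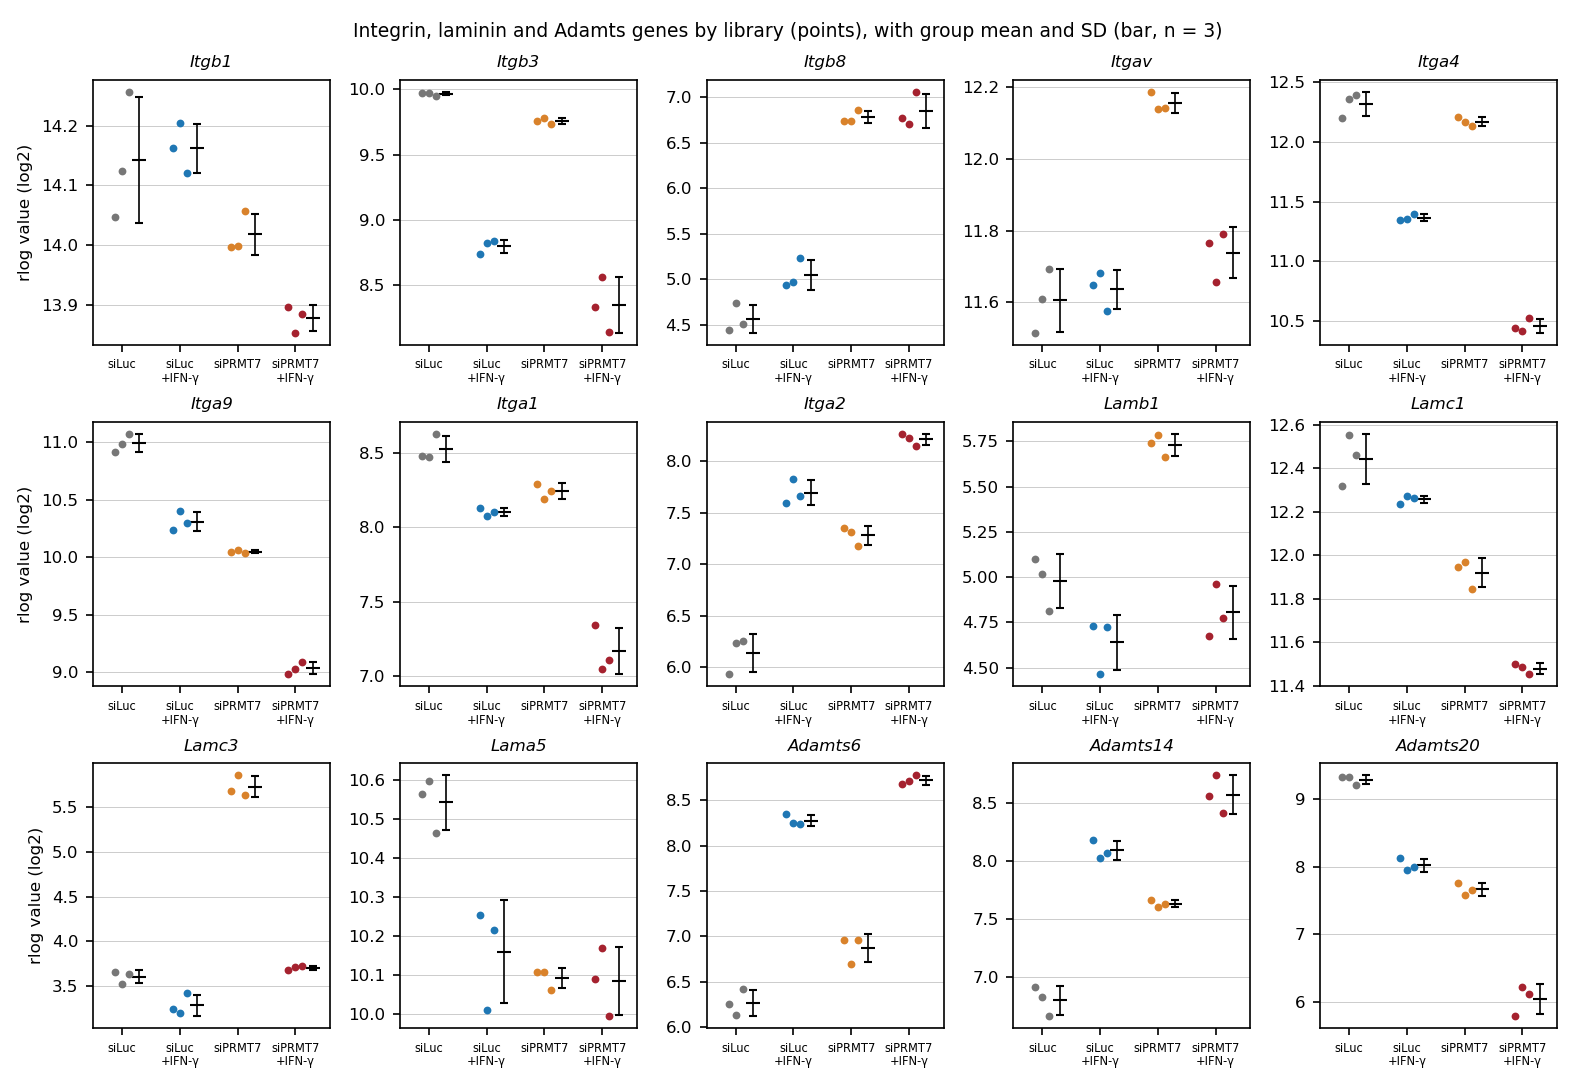
Rlog values (log2, vertical axis) of 15 integrin, laminin and Adamts genes in every library (points) with the group mean and SD (bars, n = 3). Vertical scales differ between panels: Itgb8 and Lamc3 span over 2 log2 units, Itgb1 under 0.5.

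Adamts genes mostly rose with knockdown, 7 of 11 up and 2 down without IFN-γ and 6 up and 3 down with it. After quantile normalization the counts were 7 up and 3 down, and 6 up and 4 down. Over all genes 36.3% were higher and 38.9% lower without IFN-γ, and 35.9% and 38.7% with it. Adamts1 went from 13.005, 12.99 and 12.93 to 13.87, 13.84 and 13.88 and, with IFN-γ, from 12.72, 12.73 and 12.74 to 13.39, 13.37 and 13.43, higher by 0.89 and 0.67 with no overlap. The aggrecanases Adamts4 and Adamts5 rose by 0.86 and 0.68 without IFN-γ. Against these, Adamts20, known in mice from the belted coat colour mutant, in which melanoblasts are affected, was at 9.33, 9.32 and 9.21 in siLuc and 7.76, 7.57 and 7.66 in siPRMT7, and at 8.12, 7.94 and 7.99 against 5.79, 6.22 and 6.12 with IFN-γ. Each group of Adamts20 was apart from its control, by -1.62 (3.08-fold lower) and -1.98 (3.93-fold lower). Adamts9 fell as well, by 0.73 and by 1.68. Of the lysyl oxidases Loxl3, the most abundant, was lower by 0.77 and 0.74, and Loxl2 was not called in any comparison, with an SE of 0.20 and libraries at 7.79, 6.90 and 7.28 in siLuc with IFN-γ and 7.42, 7.14 and 6.43 in siPRMT7 with IFN-γ, which overlapped. Loxl3 shares 11.6% of its exon bases with Htra2 on the other strand (mean rlog value 11.49). The sources do not state whether the authors counted by strand, so the values of overlapping genes are uncertain.

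IFN-γ is a cytokine whose textbook targets are antigen presentation genes, and the question asked of it here is how matrix and adhesion genes stand after 24 h. In siLuc cells 21 of the 66 genes rose, 26 fell and 19 were not called (71.2% called, against 60.6% of all genes, 28.0% higher and 32.7% lower). The fallers included 6 of at least 2-fold, against 1.01% of all genes, and the risers 9, against 4.57%. The median difference was 0.03, beside -0.02 over all genes, and turned to -0.03 under median centring and -0.05 under quantile normalization. Over all genes the calls went from 4029 higher and 4708 lower to 3133 and 6063 under quantile normalization, and those of the 66 to 18 and 30. In siPRMT7 cells 20 rose and 31 fell (77.3% called, against 56.6% of all genes, with 28.0% higher), 6 of the fallers and 5 of the risers by at least 2-fold (2.69% and 3.57% of all genes), with fallers at 47.0% beside 28.6% of all genes and a median of -0.11 beside -0.0023. Col6a3 and Col28a1 among these 5 risers, and Col28a1 among the 9 in siLuc, passed the filter through their IFN-γ groups. Lamc3 among the 6 fallers in siPRMT7 passed through its untreated siPRMT7 group. The 2-fold counts are therefore a description, and these genes are also in the family counts that follow. By family, 11 collagen chains of 26 rose and 9 fell in siLuc cells, or 8 and 10 after quantile normalization, and 7 rose and 12 fell in siPRMT7 cells. Integrin chains split 3 to 6 and 4 to 8 of 16, laminin chains 2 to 4 and 3 to 4 of 8, and Adamts genes 5 to 5 and 4 to 6 of 11, the last becoming 2 to 6 after quantile normalization. In 48 genes of siLuc and 53 of siPRMT7 cells the groups did not overlap, against 62.1% and 65.3% of all genes. In both kinds of cell 13 genes rose and 21 fell, 3 rose in siLuc and fell in siPRMT7 (Adamts12, Col5a1 and Col16a1), and Col2a1 did the reverse. Here too no joint share over all genes was counted, so the numbers are a description. The siLuc calls of Col5a1 (0.14, adjusted p = 0.0164) and Col16a1 (0.21, adjusted p = 0.0234) were each lost under 5 alternatives, among them leaving out siLuc replicate 3 or siLuc IFN-γ replicate 1 (adjusted p up to 0.120 and 0.0948).

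Among the genes that rose with IFN-γ were Col18a1, the parent chain of endostatin, Adamts6, a close relative of Adamts10, Adamts14, a protease that cuts procollagen ends, and Itga2. Col18a1 was at 5.16, 5.18 and 5.16 in siLuc and 7.47, 7.44 and 7.55 in siLuc with IFN-γ, and at 6.03, 6.12 and 6.30 against 7.99, 8.03 and 7.59 in siPRMT7. All treated libraries were above all untreated ones, by 2.32 (SE 0.11, adjusted p = 3.95e-14) and 1.72. Adamts6 went from 6.25, 6.13 and 6.42 to 8.35, 8.25 and 8.24 in siLuc and from 6.96, 6.69 and 6.96 to 8.68, 8.71 and 8.78 in siPRMT7, a rise of 2.01 and 1.85. Adamts14 went from 6.91, 6.82 and 6.66 to 8.18, 8.03 and 8.07 in siLuc and from 7.66, 7.60 and 7.62 to 8.56, 8.74 and 8.41 in siPRMT7, a rise of 1.29 and 0.94. Neither gene had overlapping groups. The laminin alpha chain Lama2, known from muscle, rose by 1.63 and 1.20. Col6a1, a chain of the beaded collagen VI, was at 5.78, 5.39 and 5.19 against 6.83, 6.87 and 6.66 in siLuc and at 5.90, 5.81 and 5.83 against 6.40, 6.69 and 6.52 in siPRMT7, higher by 1.33 and 0.69.

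Among the fallers were Itga4, Itgb3, Itga1, Col1a2, Col9a1 and Adamts20. By the values given above Itga4 fell by 0.95 in siLuc and by 1.71 in siPRMT7 (3.27-fold lower, adjusted p = 1.65e-18), Itgb3 fell by 1.17 and by 1.41, Col1a2 fell by 1.61 and by 0.62, and Adamts20 fell by 1.27 and by 1.62. In none of these did a treated library reach an untreated one. Col9a1, a chain of the fibril-associated collagen IX, was at 7.13, 7.02 and 6.94 against 5.72, 5.98 and 5.99 in siLuc (-1.14) and at 6.61, 6.39 and 6.35 against 5.91, 5.80 and 5.89 in siPRMT7 (-0.58), again with groups apart. Itga9 fell by 0.68 and by 1.02, and Col4a1, Col4a2 and Lamc1 each fell in both kinds of cell, by 0.19 to 0.66. Col5a3, a partner of Col5a1, was at 9.02, 9.01 and 8.91 in siLuc and 9.07, 8.98 and 9.21 with IFN-γ, which overlapped (0.10, not called). In siPRMT7 Col5a3 went from 9.04, 9.02 and 9.01 to 8.09, 8.36 and 8.25, a fall of 0.79. Itgb1 was not called in siLuc (0.02, adjusted p = 0.729) and was at -0.14 in siPRMT7 (adjusted p = 0.0122), a call lost without siPRMT7 replicate 3 (adjusted p = 0.0583). Itgav was not called in siLuc (0.03) and fell by 0.42 in siPRMT7.

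The collagen receptors Itga2 and Itga1 are neighbours on chromosome 13 (mm10), on the same strand and 20995 bases apart, at chr13:114833081-114932100 and chr13:114953096-115101964. They pair with the same beta chain, Itgb1, and they answered IFN-γ in opposite directions. Itga2 was at 5.93, 6.23 and 6.25 in siLuc, 7.59, 7.83 and 7.67 in siLuc with IFN-γ, 7.35, 7.31 and 7.17 in siPRMT7 and 8.26, 8.23 and 8.15 in siPRMT7 with IFN-γ, a rise of 1.56 (2.95-fold) and of 0.94. Itga1 was at 8.47, 8.47 and 8.63, then 8.13, 8.07 and 8.10, then 8.29, 8.19 and 8.24, and then 7.34, 7.05 and 7.11 in the same order of groups, a fall of 0.42 and of 1.07. Treated and untreated groups did not overlap in either gene. Itga1 shares 3.68% of its exon bases with Gm49395 on the same strand (mean rlog value 8.23, against 8.01 for Itga1), so its value is uncertain. The 250 bases before each start are shown because these 2 neighbours part in direction. They are from RefSeq, GRCm38.p6, minus strand, at chr13:114932101-114932350 and chr13:115101965-115102214, with no capitals since no searched motif lay in them.
Itga2: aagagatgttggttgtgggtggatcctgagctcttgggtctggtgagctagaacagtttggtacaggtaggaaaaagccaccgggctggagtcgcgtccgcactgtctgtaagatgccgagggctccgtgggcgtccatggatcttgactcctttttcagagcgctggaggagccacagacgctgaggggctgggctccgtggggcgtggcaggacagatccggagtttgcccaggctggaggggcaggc
Itga1: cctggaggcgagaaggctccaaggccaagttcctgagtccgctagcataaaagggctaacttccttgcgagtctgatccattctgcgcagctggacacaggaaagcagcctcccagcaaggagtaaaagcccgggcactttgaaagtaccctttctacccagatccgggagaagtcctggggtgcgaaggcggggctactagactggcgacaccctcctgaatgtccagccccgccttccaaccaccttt

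Other neighbours gave a mixed picture. Col4a1 and Col4a2 start from opposite strands on chromosome 8 and overlap by 22 bases, and both were lower in all 4 comparisons. Col4a4 and Col4a3 also start head to head, 126 bases apart on chromosome 1. Col4a4 was at 5.53, 5.21 and 5.57 in siLuc, 4.30, 4.29 and 4.20 in siLuc with IFN-γ, 5.12, 5.18 and 5.43 in siPRMT7 and 4.61, 4.85 and 4.51 in siPRMT7 with IFN-γ. It fell with IFN-γ by 1.17 and by 0.59, whereas Col4a3 was not called with IFN-γ in either kind of cell (0.16 and 0.22). Adamts1 and Adamts5, 53059 bases apart on chromosome 16, both rose with knockdown and both fell with IFN-γ, by 0.25 and 0.29 in siLuc and by 0.47 and 0.62 in siPRMT7. The stretch that Col4a4 and Col4a3 share is shown as far as it lies outside annotated exons, 71 bases at chr1:82586850-82586920 on the strand of Col4a4, with no searched motif.
Col4a4: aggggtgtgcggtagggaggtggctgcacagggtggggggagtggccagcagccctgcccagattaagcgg

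Windows of 250 bases before the start were at hand for 46 of the 66 genes (48 windows), to set beside 32851 windows of all genes in the same RefSeq table. They were searched on both strands for a GAS-like motif (TTCNNNGAA), an ISRE-like motif (GAAA, NN, GAAA), an AP-1-like motif (TGANTCA), the E-boxes CACGTG and CATGTG and a GC box (GGGCGG). The GAS-like letters stood in 4 windows (8.33%, against 7.02% of all windows), those of Col28a1, Itga10, Itgb3bp and Lamb2. Of the genes that rose with IFN-γ in siLuc cells 2 of 19 windows held it, Col28a1 and Lamb2, and of those that fell 0 of 17. In siPRMT7 cells 3 of 16 windows of risers held it, those of Col28a1, Lamb2 and Itgb3bp, and 1 of 22 windows of fallers, that of Itga10. The ISRE-like letters were in 1 window, of Itga2b (2.08%, against 2.98%), the AP-1-like letters in 1, of Col6a1 (against 6.75%), CACGTG in 0 (against 6.02%) and CATGTG in 2 (against 12.3%). GC boxes were in 23 windows, or 47.9%, against 32.7% of all windows. A match describes letters and no binding. Col28a1 and Lamb2 are shown because both rose with IFN-γ in both kinds of cell and hold the GAS-like letters, in capitals. Lamb2 was higher by 0.55 and 0.24 and Col28a1 by 2.12 and 1.06. Col28a1 passed the filter through its IFN-γ groups, so its place among the risers is a description. The Col28a1 run is chr6:8192618-8192867, minus strand, and the Lamb2 run chr9:108479612-108479735, plus strand, which ends 126 bases before the start.
Col28a1: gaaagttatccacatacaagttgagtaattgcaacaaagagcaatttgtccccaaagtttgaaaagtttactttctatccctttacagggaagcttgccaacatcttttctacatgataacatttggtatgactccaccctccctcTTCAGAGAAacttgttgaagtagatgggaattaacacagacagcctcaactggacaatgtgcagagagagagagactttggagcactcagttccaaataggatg
Lamb2: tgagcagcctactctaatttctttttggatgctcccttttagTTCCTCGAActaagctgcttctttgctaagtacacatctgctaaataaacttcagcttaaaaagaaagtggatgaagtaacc

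Whether knockdown changed the answer to IFN-γ was tested by the difference of the 2 IFN-γ responses, siPRMT7 less siLuc. Of the 66 genes 40 were called, or 60.6% beside 30.6% of all genes, 13 of them higher and 27 lower. The lower calls were 40.9% of the 66 beside 16.5% of all genes, the higher calls 19.7% beside 14.1%, and the median was -0.23 beside -0.0029 over all genes. Median centring and quantile normalization each gave 13 higher and 25 lower calls, where over all genes the calls went from 2034 higher and 2381 lower to 2852 and 1993 under median centring. At least a 2-fold difference was called for 2 of the 66 upward (0.437% of all genes) and 3 downward (1.94%). Among them Col6a3 upward, and Lamc3 and Col28a1 downward, passed the filter through the groups where they are high. Adamts genes had 6 lower calls and 0 higher of 11, laminin chains 6 (Lamc3 included) and 2 of 8, integrin chains 5 and 1 of 16, and collagens 10 and 7 of 26.

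**Figure D5:**
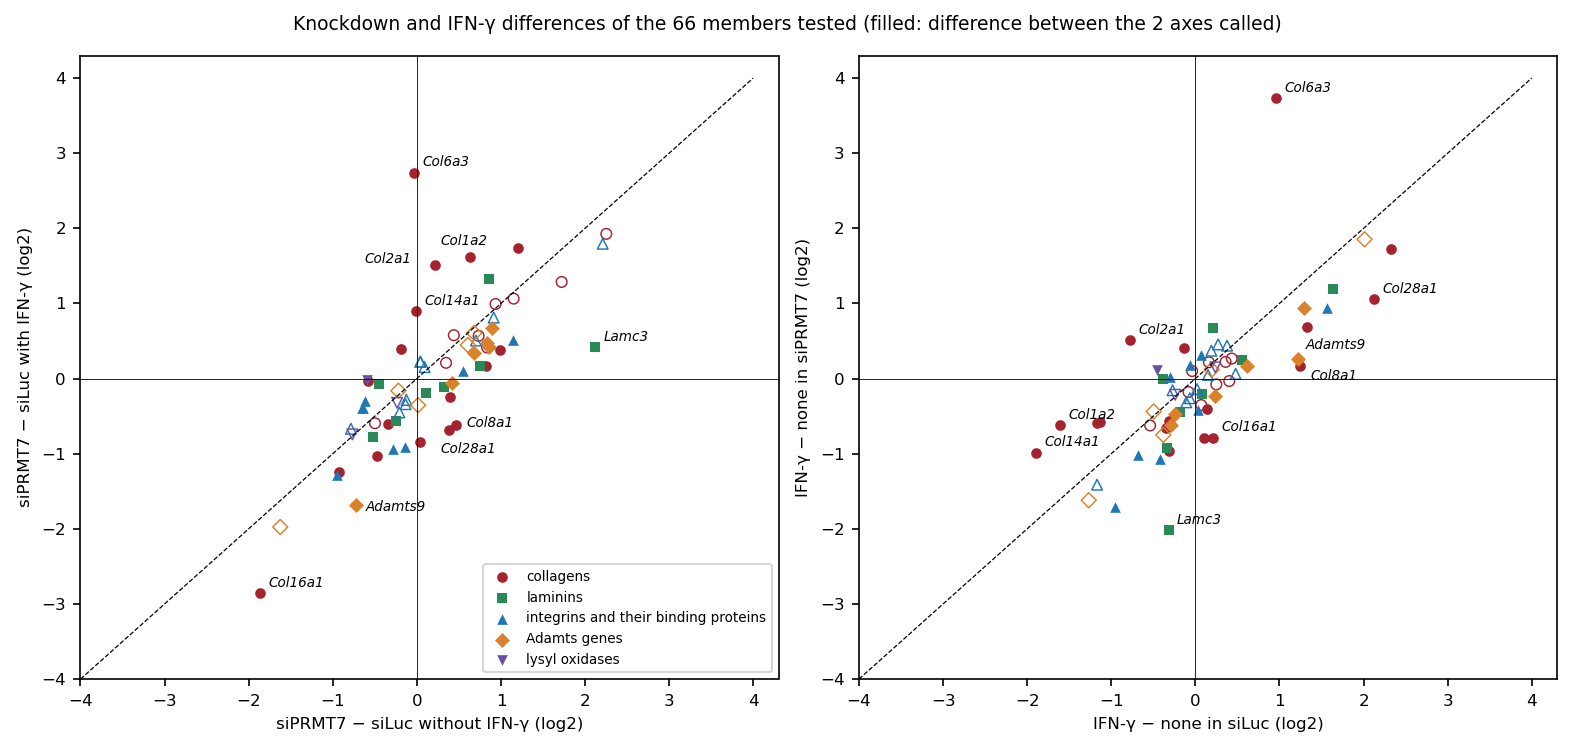
Knockdown difference without (horizontal) and with IFN-γ (vertical) at left, and IFN-γ difference in siLuc (horizontal) and siPRMT7 (vertical) at right, in log2, for the 66 genes tested. Filled symbols are genes whose distance from the dashed line of equality was called. Col6a3 lies farthest from the line, at 3.73 against 0.95 in the right panel.

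The largest difference was in Col6a3, a chain of collagen VI, given here by library after its values were seen, as are Col28a1, Lamc3, Col2a1, Col4a3, Col4a4, Col5a1 and Adamts1. Col6a3 was at 3.91, 3.99 and 3.78 in siLuc, 4.81, 4.97 and 4.76 in siLuc with IFN-γ, 3.83, 3.93 and 3.81 in siPRMT7 and 7.61, 7.49 and 7.66 in siPRMT7 with IFN-γ. The last group stood far above the other three, and the untreated groups overlapped. Knockdown was not called for it without IFN-γ (-0.03) and raised it by 2.74 (6.68-fold) with IFN-γ. IFN-γ raised Col6a3 by 0.95 in siLuc and by 3.73 (13.3-fold) in siPRMT7, a difference of 2.77. Col6a3 passed the filter through its IFN-γ groups, so no p-value is given and these differences are a description. Its partner chain Col6a1 went the other way, at -0.64, with a rise that was smaller in siPRMT7, although quantile normalization took this call away (adjusted p = 0.0529). Col6a2, the remaining common partner, was below the filter, at most at -1.95.

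Lamc3, a gamma chain known from the cerebral cortex and the retina, was high in a single group. Lamc3 was at 3.65, 3.52 and 3.64 in siLuc, 3.24, 3.19 and 3.42 in siLuc with IFN-γ, 5.68, 5.86 and 5.64 in siPRMT7 and 3.68, 3.71 and 3.72 in siPRMT7 with IFN-γ. The untreated knockdown group alone carried it past the filter, so no test is given. The knockdown difference was 2.12 without and 0.42 with IFN-γ, and the IFN-γ responses differed by -1.70. The summed endothelial marker level given above was also highest in untreated siPRMT7 cells, through Vwf; Pecam1, Cdh5, Kdr, Tek and Emcn were below the filter, and the part of such cells in the value of Lamc3 was not tested. Lamc3 shares 6.27% of its exon bases with Gm13441, which is listed at 0.

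Col28a1 was at 3.59, 3.51 and 3.58 in siLuc, 5.78, 5.70 and 5.56 in siLuc with IFN-γ, 3.72, 4.12 and 3.97 in siPRMT7 and 5.003, 5.03 and 4.94 in siPRMT7 with IFN-γ. Every treated library was above every untreated one, and the rise was smaller in siPRMT7 by 1.06 on the log2 scale. Col28a1 passed the filter through its IFN-γ groups, so these values are a description. Col2a1, the main cartilage collagen, was at 5.89, 5.66 and 5.60, then 5.09, 4.57 and 5.14, then 5.90, 6.15 and 5.75, and then 6.37, 6.53 and 6.43 in the same order. It fell with IFN-γ in siLuc by 0.78 and rose in siPRMT7 by 0.51, and the responses differed by 1.30. Col1a2 differed by 0.99, falling less in siPRMT7, and Col16a1 and Col5a3 by -0.996 and -0.89. For Itga4 the fall was deeper in siPRMT7 by 0.76 on the log2 scale, and for Itga1 by 0.65. Itgb3, Itgb1, Itgb8, Col10a1 and Col1a1 were not called, at -0.24, -0.16, -0.42, -0.33 and -0.10 with SEs of 0.06 to 0.16.

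Genes of related pathways were counted from lists of other matrix and adhesion genes. Enzymes that modify collagen in the secretory pathway or outside the cell fell with knockdown: 14 of 17 tested fell and 1 rose without IFN-γ (median -0.46), and 13 fell and 3 rose with it (median -0.61), beside 38.9% and 38.7% of all genes lower. After quantile normalization 14 fell and 2 rose, and 12 fell and 3 rose. Pcolce, which enhances cutting of procollagen ends, was at 11.70, 11.67 and 11.56 in siLuc and 9.46, 9.39 and 9.40 in siPRMT7, and at 12.67, 12.77 and 12.75 against 10.15, 10.26 and 10.14 with IFN-γ, with differences of -2.23 and -2.55. Its groups lay apart in both settings. With IFN-γ in siLuc the lysyl hydroxylase Plod3 rose by 1.54 and Plod2 fell by 0.46, and the list split 7 to 8.

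Among 20 other matrix proteins tested 10 rose and 6 fell with knockdown without IFN-γ (36.3% and 38.9% of all genes), and 10 rose and 9 fell with it (35.9% and 38.7% of all genes). Fbn1, the main fibrillin of elastic microfibrils, was at 4.14, 4.16 and 4.12 in siLuc and 8.01, 8.10 and 7.98 with IFN-γ, and at 4.26, 4.04 and 4.14 against 8.46, 8.34 and 8.57 in siPRMT7, a rise of 3.89 and 4.31, larger than that of any collagen, laminin, integrin, Adamts or lysyl oxidase gene in the same cells. The matricellular Ccn2 was higher by knockdown with IFN-γ (1.77), and Fbln5, an elastic fibre protein, lower (-1.72). Of 12 matrix metalloproteinase and inhibitor genes 5 rose and 4 fell with knockdown without IFN-γ, and 4 rose and 5 fell with it, or 6 and 5 after median centring, which is near those shares. For knockdown with IFN-γ that centring took all genes to 6217 higher and 4745 lower. With IFN-γ 5 rose and 3 fell in siLuc (3 and 3 after median centring, against 28.0% and 32.7% of all genes), and 3 rose and 7 fell in siPRMT7 (against 28.0% and 28.6%), with the membrane protease Mmp15 at -1.69 and -1.86 and Mmp2, a gelatinase, at 0.89 with knockdown without IFN-γ. Of 4 Adamts-like genes 2 rose and 1 fell with knockdown without IFN-γ, and 2 rose and 2 fell with it.

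Of 24 adaptors that link integrins to actin or modulate them 5 rose and 12 fell with knockdown without IFN-γ, or 8 and 9 after quantile normalization, and 7 rose and 15 fell with it, beside 36.3% of all genes higher and 38.9% lower, and 35.9% and 38.7% with IFN-γ. Paxillin (Pxn) was higher by 0.96 and 1.40, and Parvb and Tns1 were the largest fallers, at -0.97 without and -1.55 with IFN-γ. With IFN-γ 8 rose and 9 fell in siLuc (33.3% and 37.5%, against 28.0% and 32.7% of all genes), or 6 and 12 after median centring. In siLuc that centring took all genes to 3360 higher and 5635 lower. Among the risers was the integrin-associated receptor Cd47 at 2.11, which rose in siPRMT7 too (1.83). Of 18 genes of the TGF-β pathway, whose activation Itgb8 is known for, 6 rose and 8 fell with knockdown without IFN-γ, or 8 and 7 after median centring. Before centring these shares were 33.3% higher and 44.4% lower, near those of all genes. With IFN-γ 8 rose and 6 fell (44.4% and 33.3%, against 35.9% and 38.7% of all genes), or 11 and 5 after median centring. Over all 14407 genes that centring took the calls from 5179 higher and 5578 lower to 6217 and 4745. Tgfbr2 was higher by 0.81 and the repressor Ski fell by 0.999 without IFN-γ.

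The authors' deposited table gives its own adjusted p-values for these comparisons. Among the 66 genes it calls 51 and 52 for knockdown without and with IFN-γ, and 42 and 47 for IFN-γ in siLuc and siPRMT7, at the same threshold, all in the direction found here. Calls made here and not in the authors' deposited table numbered 3, 2, 5 and 4.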

How the data were processed

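Per the submitters' processing notes, reads were handled with STAR 2.7.1a and Trimmomatic 0.39 on the mouse build mm10, and HOMER 4.11.1 and DESeq2 1.26.0 are named as well. Per the file headers the deposited table holds, per gene and library, rlog values on a log2 scale, and the authors' own log2 fold changes, p-values and adjusted p-values for 6 comparisons, of which the 4 that change knockdown or IFN-γ alone were used. Library totals (19.0 to 31.0 M reads) are also from the file headers. The table gives no read counts per gene, so no counting intervals were computed, and no count test was run.

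The rlog values of all 12 libraries were fitted together with limma 3.58.1 in R 4.3.3, as 4 group means with moderated variances and a mean-variance trend (8 residual and 12.4 prior degrees of freedom). Tests were 2-sided, over the 14407 genes averaging at least 4 in rlog value, with Benjamini-Hochberg adjustment, and were called under 0.05. The 5 comparisons were knockdown without and with IFN-γ, IFN-γ in siLuc and in siPRMT7, and the siPRMT7 less the siLuc response to IFN-γ; knockdown and IFN-γ comparisons share libraries, so their values are only set side by side. The script was tested on simulated data. Exon overlaps were taken from GENCODE vM21, in which 66 of all 108 genes have the same coordinates as in the deposited table. Their percentages are shares of all annotated exon bases of a gene, which can exceed the deposited gene model length. Levels per length use that deposited length. Start windows were RefSeq GRCm38.p6.

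Genes shown by library were the 4 largest called rises and falls per comparison averaging at least 6 in rlog value, with 12 integrin, collagen, laminin and lysyl oxidase genes always included where tested, and for other lists the largest rise and fall. Other genes shown by library were chosen after their values were seen. The genes, the lists and the motifs were chosen with earlier results of these data known. Alternatives were the filter, centring, the variance model, the samples fitted, a replicate block, leaving out each library and the reading of the name rule. Values of 1 gene among the 66 are in the counts and medians and are not reported here by name.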

Additional observations from a re-analysis of the deposited data

Results flagged for a closer look

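The log2 response to IFN-γ differed between siPRMT7 and siLuc cells by the test of the difference itself for 40 of the 66 genes (limma, adjusted p under 0.05), which is why 39 of them are listed; 30.6% of all genes tested were called. Values are the siPRMT7 response less the siLuc response. Among collagen chains with a difference above 0 were Col6a3 at 2.77, Col2a1 at 1.30, Col1a2 at 0.99, Col14a1 at 0.91, Col4a4 at 0.58, Col9a1 at 0.56 and Col11a2 at 0.54. Among collagen chains with a difference below 0 were Col8a1 at -1.08, Col28a1 at -1.06, Col16a1 at -0.996, Col5a3 at -0.89, Col9a2 at -0.65, Col6a1 at -0.64, Col18a1 at -0.60, Col5a1 at -0.55, Col4a1 at -0.31 and Col4a2 at -0.26. Among laminin chains with a difference above 0 was Lama5 at 0.38. Among laminin chains with a difference below 0 were Lamc3 at -1.70, Lamb1 at -0.59, Lama2 at -0.44, Lamb2 at -0.31, Lama4 at -0.29 and Lamc1 at -0.25. Among integrin chains and the integrin-binding protein genes with a difference above 0 were Itgb5 at 0.32, Itgb1bp1 at 0.25 and Itgb3bp at 0.24. Among integrin chains and the integrin-binding protein genes with a difference below 0 were Itga4 at -0.76, Itga1 at -0.65, Itga2 at -0.62, Itgav at -0.45 and Itga9 at -0.33. Among Adamts genes with a difference below 0 were Adamts9 at -0.96, Adamts12 at -0.47, Adamts4 at -0.44, Adamts14 at -0.35, Adamts5 at -0.33 and Adamts1 at -0.22. Among lysyl oxidases with a difference above 0 was Loxl4 at 0.57. Of these, Lama2 lost its call under 11 alternatives, Adamts14 under 10 and Col4a2 under 4, and Adamts5, Col18a1, Col6a1 and Itga2 lost theirs under quantile normalization. Lamc3 passed the filter through its siPRMT7 group alone, and Col6a3 and Col28a1 through their IFN-γ groups, so their values are a description. No cause was tested for any of them.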

How the results depend on the processing

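Of 246 called results of the 66 genes over the 5 comparisons, 212 kept their call and direction under every alternative run in which the gene was tested, and 34 lost the call in at least 1. Of 84 results without a call 30 gained one. Only quantile normalization turned a sign: for knockdown without IFN-γ Itga4 went to 0.014 (adjusted p = 0.758) and Itgb1 to 0.10 (adjusted p = 0.0327). With the filter raised to 6 only 43 genes were tested, and fewer could be called: 20 rose with knockdown without IFN-γ, 17 with it, 12 rose with IFN-γ in siPRMT7, and 7 had a higher IFN-γ response in siPRMT7, while 18, 20, 25 and 22 were lower in the same order, so that knockdown with IFN-γ turned from more risers to more fallers. Their median was -0.19 for knockdown with IFN-γ and -0.066 for IFN-γ in siLuc. Without a filter the higher counts were 39, 31, 18, 22 and 13.

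Leaving out 1 library at a time gave 30 to 32, 28 to 29, 17 to 21, 18 to 20 and 12 to 13 higher genes in the order knockdown without and with IFN-γ, IFN-γ in siLuc and siPRMT7, and the difference of responses, and 21 to 23, 25 to 27, 23 to 25, 30 to 31 and 24 to 31 lower. The cause of these shifts was not tested. Libraries with the same replicate number had deviations that correlated at -0.12 to 0.22 (18 pairs, median 0.063, 5 over 0.1). Other pairs correlated at -0.15 to 0.16 (36 pairs, median -0.021, 3 over 0.1), and 8 of 12 libraries correlated best with their own number. The file headers number the series alike in every group. A pairing by number is thus possible, and the main fit left it out. With the replicate number as a block the higher counts were 32, 28, 22, 20 and 13 and the lower 22, 25, 26, 31 and 30, and of the called results only Itgav with IFN-γ lost its call. Rlog values shrink weak genes and carry no depth, so small changes of genes near the filter may be missed.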

Other observations

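Col4a3bp, whose product is a ceramide transfer protein named for binding a collagen chain, was left out of the gene set because its symbol does not match a chain in full. It fell with knockdown without IFN-γ (1.44-fold lower), and IFN-γ moved it by -0.31 in siLuc and 0.29 in siPRMT7, a difference of 0.60. Itgb3bp, a centromere protein, and Itgb1bp1, a cytoplasmic protein that binds the tail of Itgb1, both fell with knockdown, by 0.64 and 0.65 without IFN-γ and by 0.39 and 0.40 with it, and both rose with IFN-γ in siPRMT7 cells, by 0.31 and 0.19. On the other strand Itgb1bp1 shares 11.4% of its exon bases with Asap2 and 5.54% with Cpsf3, and Itgb3bp 8.59% with Pgm1. Their values are therefore uncertain.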
